A study of Mus musculus with 9 samples.

Results

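The 4 genes Fmo1, Fmo2, Fmo4 and Fmo5 of the flavin-containing monooxygenase (Fmo) family were followed in mouse hepatocellular carcinoma (HCC) and control liver. They were chosen on measured values, with the HCC and control intensities given below already known, and were found by symbol among the probe sets that carry 1 gene symbol. They make 4 of the 19938 genes measured, each on 1 probe set (10359571 for Fmo1, 10359582 for Fmo2, 10359561 for Fmo4 and 10494565 for Fmo5). The difference between HCC and control liver is therefore given for each of these genes as a description, without a p-value. How many of the 4 passed a threshold is given once, beside the share of all genes that did, and supports nothing.

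Each sample of total RNA was hybridised to 1 Affymetrix array, the Mouse Gene 1.0 ST. Of the 9 arrays, 5 held HCC of bitransgenic AFP-Cre/Rosa26-lsl-NICD mice (AFP-NICD), in which Cre under the AFP promoter removes a stop cassette before the Notch intracellular domain (NICD). The other 4 held healthy liver of monotransgenic Rosa26-lsl-NICD mice, which carry the same silent allele without Cre and were age-matched. All mice were 6 to 12 months old, on a hybrid background of 129 and C57BL/6. The AFP promoter is known to be active in the fetal liver, and each tumour sample holds all the cell types of the tumour. Sex and litter are not in the labels. Nor do these say that each array is a separate mouse, and p-values measure only the spread between these arrays, which may be technical.

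Flavin-containing monooxygenases are enzymes of the endoplasmic reticulum that hold FAD and use NADPH and oxygen to add an oxygen atom to soft nucleophiles, mainly nitrogen and sulfur atoms of drugs and dietary amines. They work beside the cytochromes P450 but bind oxygen before the substrate. In mouse liver Fmo1 and Fmo5 are known as abundant forms, and Fmo2 is best known as the lung form. RefSeq (GRCm38.p6) places Fmo4, Fmo1 and Fmo2 in this order in a cluster on chromosome 1, and Fmo5 on chromosome 3.

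Promoter windows of 300 bases, 250 before and 50 after a RefSeq start, are shown for Fmo2 and Fmo4, the members of the chromosome 1 cluster that were higher on average in HCC, and for Fmo5, which was lower. They are from RefSeq (GRCm38.p6), printed 5′ to 3′ on the strand of the gene. Capitals mark matches to the motifs searched. The Fmo2 window is at chr1:162898709-162899008 on the minus strand, the Fmo4 window at chr1:162812500-162812799 on the minus strand, and the Fmo5 window at chr3:97628769-97629068 on the plus strand.
Fmo2: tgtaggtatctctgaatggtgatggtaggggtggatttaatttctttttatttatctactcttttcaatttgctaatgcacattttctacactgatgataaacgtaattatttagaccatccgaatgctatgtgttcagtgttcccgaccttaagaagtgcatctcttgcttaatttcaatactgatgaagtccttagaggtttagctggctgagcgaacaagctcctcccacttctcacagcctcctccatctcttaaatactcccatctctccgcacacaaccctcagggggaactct
Fmo4: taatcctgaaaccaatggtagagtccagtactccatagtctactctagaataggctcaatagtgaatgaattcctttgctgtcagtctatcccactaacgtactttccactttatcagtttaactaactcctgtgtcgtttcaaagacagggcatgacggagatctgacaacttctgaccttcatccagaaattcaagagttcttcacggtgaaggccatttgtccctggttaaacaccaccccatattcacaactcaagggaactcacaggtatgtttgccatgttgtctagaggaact
Fmo5: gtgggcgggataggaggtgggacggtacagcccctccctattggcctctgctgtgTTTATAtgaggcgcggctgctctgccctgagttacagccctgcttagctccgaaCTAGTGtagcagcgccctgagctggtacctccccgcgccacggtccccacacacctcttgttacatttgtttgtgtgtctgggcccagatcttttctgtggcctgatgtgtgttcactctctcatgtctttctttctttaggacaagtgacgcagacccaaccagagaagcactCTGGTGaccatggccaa

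A window was held for 3 of the 4 members, with 2 overlapping windows for Fmo2. The motifs, searched on both strands of these 4 windows, were the core TGGGAA of RBPJ, the DNA-binding partner of NICD, the N box CACNAG of HES repressors, the core GCGTG of the aryl hydrocarbon receptor, the HNF1 element GTTAAT, the AP-1 site TGANTCA and the TATA box TATAAA. None of these letters occurred in the windows of Fmo2 and Fmo4. The Fmo5 window, with 56% G and C against 41.3% in the Fmo2 window shown and 42.7% in the Fmo4 window, held the TATA letters on its minus strand with the first base at -195 from the start. It held the N box on its minus strand with first bases at -141 and at 34, and no 2 of these matches overlapped. Of all 32851 RefSeq promoter windows of this length, 25.6% held the RBPJ core, 42.5% the N box, 32.4% the aryl hydrocarbon receptor core, 7.1% the HNF1 element, 7.81% the AP-1 site and 13.6% the TATA letters. These matches are a description of the letters and not of binding.

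The values are RMA intensities, which were normalised between arrays by the authors and are given here on the log2 scale, where a difference of 1 is 2-fold. Levels of different genes are not compared, since each probe set has its own response. The median probe set had 91.5 to 101 linear units, depending on the array. Replicate arrays correlated at r between 0.947 and 0.994 over genes. In limma, adjusted over all 19938 genes, 171 genes were higher and 32 lower in HCC at an adjusted p below 0.05, and this count lay between 10 and 1187 when 1 array was left out. The highest count was without HCC array 5, whose hepatocyte markers summed to 74436 linear units, against 51691 to 59823 on the other HCC arrays and 75015 to 81609 on the control arrays. Hepatocyte markers were bright in both tissues: Alb, the serum albumin gene, lay between 13.02 and 13.56 on the HCC arrays and between 13.47 and 13.66 on the control arrays.

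Fmo2 had the largest difference of the 4 members. It measured 11.10, 11.00, 11.52, 11.62 and 10.66 on HCC arrays 1 to 5, against 10.11, 10.03, 10.05 and 8.89 on control arrays 1 to 4. The groups did not overlap, and the lowest values were on HCC array 5 and control array 4. The means were 11.18 ± 0.39 in HCC and 9.77 ± 0.59 in control liver (SD, n = 5 and n = 4), a log2 difference of 1.41 (SE 0.29), or 2.66-fold. In linear units Fmo2 lay between 1617 and 3146 in HCC and between 474 and 1108 in control liver. Without control array 4, which stood apart from the other 3 controls, the difference was 1.12 (SE 0.21), and without HCC array 5 it was 1.54 (SE 0.29).

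Fmo4, a less studied member of the family, differed in the same direction as Fmo2. It measured 9.34, 9.13, 8.76, 9.29 and 8.21 on HCC arrays 1 to 5, against 8.35, 8.41, 8.76 and 7.44 on control arrays 1 to 4. The groups overlapped: HCC arrays 1, 2 and 4 were above all controls, HCC array 3 was level with control array 3, and HCC array 5 was below control arrays 1 to 3. The means were 8.95 ± 0.47 in HCC and 8.24 ± 0.56 in control liver (SD, n = 5 and n = 4), a log2 difference of 0.71 (SE 0.30). It was 0.44 (SE 0.26) without control array 4 and 0.89 (SE 0.27) without HCC array 5.

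Fmo1, which lies between Fmo4 and Fmo2 and is a broad oxidase of drug amines and of hypotaurine, differed in the opposite direction. It measured 11.02, 11.87, 11.45, 11.81 and 11.87 on HCC arrays 1 to 5, against 12.32, 12.12, 12.23 and 11.86 on control arrays 1 to 4. Control array 4 lay within the HCC range and HCC array 1 was the lowest. The means were 11.60 ± 0.37 in HCC and 12.13 ± 0.20 in control liver (SD, n = 5 and n = 4), a log2 difference of -0.53 (SE 0.19). It was -0.38 (SE 0.13) without HCC array 1, -0.62 (SE 0.20) without control array 4 and -0.59 (SE 0.20) without HCC array 5.

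Fmo5, the member known for Baeyer-Villiger oxidation of ketones and for a part in the metabolic ageing of mice, was also lower on average. It measured 10.24, 11.84, 11.74, 11.60 and 11.98 on HCC arrays 1 to 5, against 12.47, 12.19, 11.97 and 12.02 on control arrays 1 to 4. HCC arrays 1 to 4 were below all controls and HCC array 5 lay at the level of control array 3. The means were 11.48 ± 0.71 in HCC and 12.16 ± 0.22 in control liver (SD, n = 5 and n = 4), a log2 difference of -0.68 (SE 0.33). Much of this difference rested on HCC array 1, at 1211 linear units against 3101 to 4051 on the other HCC arrays: without it the difference was -0.37 (SE 0.13), and without HCC array 5 it was -0.81 (SE 0.34).

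**Figure D1:**
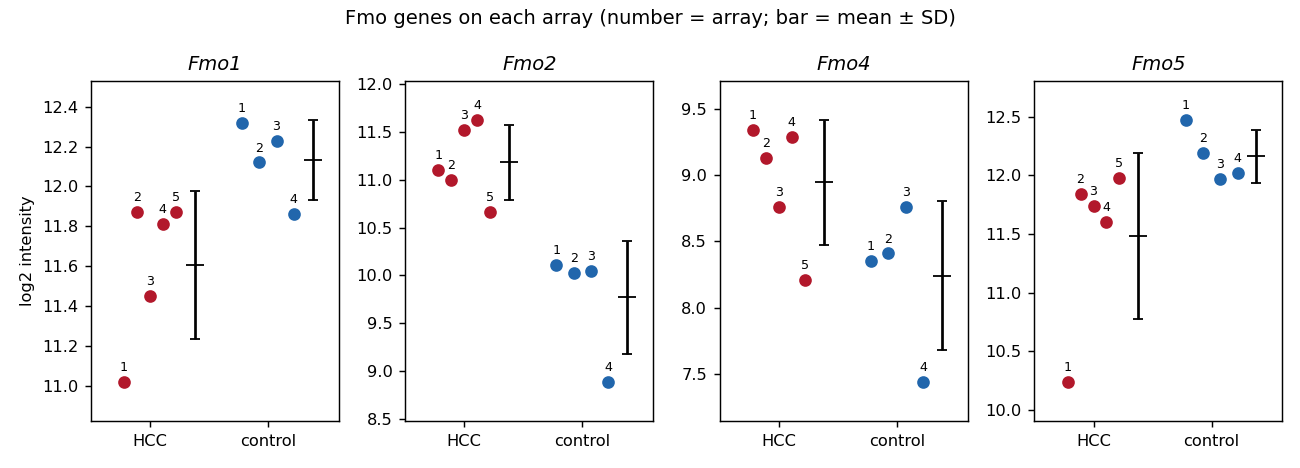
Log2 intensity of Fmo1, Fmo2, Fmo4 and Fmo5 on each array (points, numbered by array), with HCC in red on the left and control liver in blue on the right of each panel; the black bars give the mean and SD of 5 HCC and 4 control arrays, and the vertical axes do not start at 0. Fmo2 is the gene whose groups do not overlap; control array 4 is low for Fmo2 and Fmo4, and HCC array 1 is low for Fmo1 and Fmo5.

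The 4 members thus split into 2 that were higher and 2 that were lower on average in HCC, with a median log2 difference of 0.09, against -0.033 over all genes tested. In limma 0 of the 4 passed an adjusted p below 0.05, as did 1.02% of all genes, and 3 of the 4 had an unadjusted p below 0.05, as did 20.4% of all genes. Complete separation with HCC higher was seen for 1 of the 4 members, as for 5.63% of all genes, and with HCC lower for 0 of the 4, as for 3.86% of all genes. The count of 0 was 1, Fmo2, in 3 of 17 refitted alternatives: with array weights, with the dimmer genes left out, and without HCC array 5. In these 3, in the same order, 749, 378 (of fewer genes tested) and 1187 of all genes passed, against 203 in the fit as reported. Since the choice of the family used this contrast, nothing is read from these counts. In these bulk samples fewer cells of a type and less RNA per cell cannot be told apart.

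The arrays on which the members deviated from their control mean were not the same for all of them. On HCC array 1 Fmo5 was at -1.92 and Fmo1 at -1.11 from its control mean, the lowest value of each, while Fmo2 was at 1.33 and Fmo4 at 1.10. On HCC array 5 all 4 were nearer to the control mean than on the average HCC array, with Fmo2 at 0.89, Fmo4 at -0.03, Fmo5 at -0.18 and Fmo1 at -0.26. On control array 4 the pattern was another one, with Fmo2 at -0.88 and Fmo4 at -0.80, but Fmo1 at -0.28 and Fmo5 at -0.14.

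**Figure D2:**
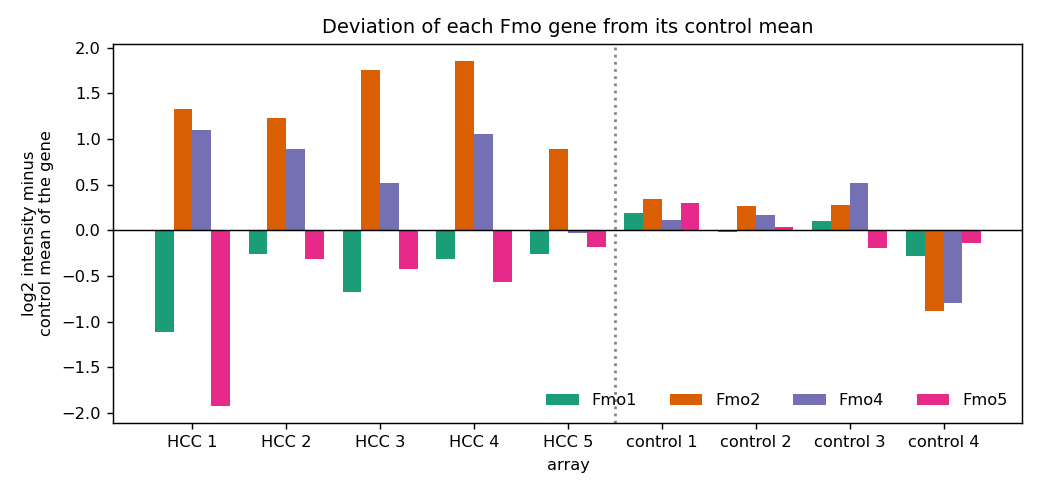
Log2 intensity of each Fmo gene minus its mean on the 4 control arrays, for HCC arrays 1 to 5 (left of the dotted line) and control arrays 1 to 4 (right); each bar is 1 gene on 1 array. Fmo2 is above 0 on 5 of 5 HCC arrays, between 0.89 and 1.85, Fmo5 reaches -1.92 on HCC array 1, and on control array 4 Fmo2 and Fmo4 are the low genes.

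Within the groups the members paired off in the same way. After subtraction of the group means, Fmo2 and Fmo4 correlated at r = 0.77 over the 9 arrays, and at 0.58 without control array 4 and 0.70 without control array 4 and HCC array 1. Fmo1 and Fmo5 correlated at r = 0.84, which rested in part on HCC array 1: it was 0.57 without that array and 0.37 without it and control array 4. The other 4 pairs lay between -0.37 and 0.22 over the 9 arrays, and between -0.79 and -0.07 without both of these arrays. These correlations are descriptions over arrays that share the normalisation.

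The levels of Xist, the RNA of the inactive X chromosome, differed between arrays of both groups. Xist measured 11.14 and 11.13 on HCC arrays 1 and 2 but 4.98, 5.10 and 4.92 on HCC arrays 3, 4 and 5, and it lay between 10.68 and 11.76 on control arrays 1 to 3 but at 4.83 on control array 4. Control array 4, the control with low Xist, was the lowest control for Fmo1, Fmo2 and Fmo4. The HCC arrays did not follow it in Fmo1 and Fmo2: the 2 with high Xist averaged 11.45 for Fmo1 and 11.05 for Fmo2, and the 3 with low Xist 11.71 and 11.27. In Fmo4 they did, with a mean of 9.24 on the 2 HCC arrays with high Xist and 8.75 on the 3 with low Xist. The Y-linked transcript Eif2s3y ran opposite to Xist, with 3.50, 3.42, 8.96, 6.05 and 8.96 on HCC arrays 1 to 5, against 3.52, 3.86, 3.73 and 9.10 on control arrays 1 to 4. On HCC array 4, where Xist was low, it lay between the high and the low arrays. Uty, also Y-linked, was at 8.26, 5.29 and 7.84 on HCC arrays 3 to 5 and 4.18 to 4.62 on HCC arrays 1 and 2, against 7.84 on control array 4 and 4.62 to 5.02 on the other controls. Kdm5d was highest on HCC array 5 (8.40) and control array 4 (8.65) and lay between 4.84 and 6.21 on the other arrays. When Xist was added to the fit as a covariate, the log2 differences were 1.52 (SE 0.30) for Fmo2, 0.94 (SE 0.24) for Fmo4, -0.53 (SE 0.21) for Fmo1 and -0.80 (SE 0.35) for Fmo5. Among the arrays of high Xist (2 HCC, 3 control) the differences of the means were 0.99 for Fmo2, 0.73 for Fmo4, -0.78 for Fmo1 and -1.17 for Fmo5. Among the arrays of low Xist (3 HCC, 1 control) they were 2.38 for Fmo2, 1.31 for Fmo4, -0.15 for Fmo1 and -0.25 for Fmo5, so each gene kept its direction in both. The split by Xist was made after seeing the data, and the part of these sex-linked transcripts in the Fmo values was not tested beyond it.

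**Figure D3:**
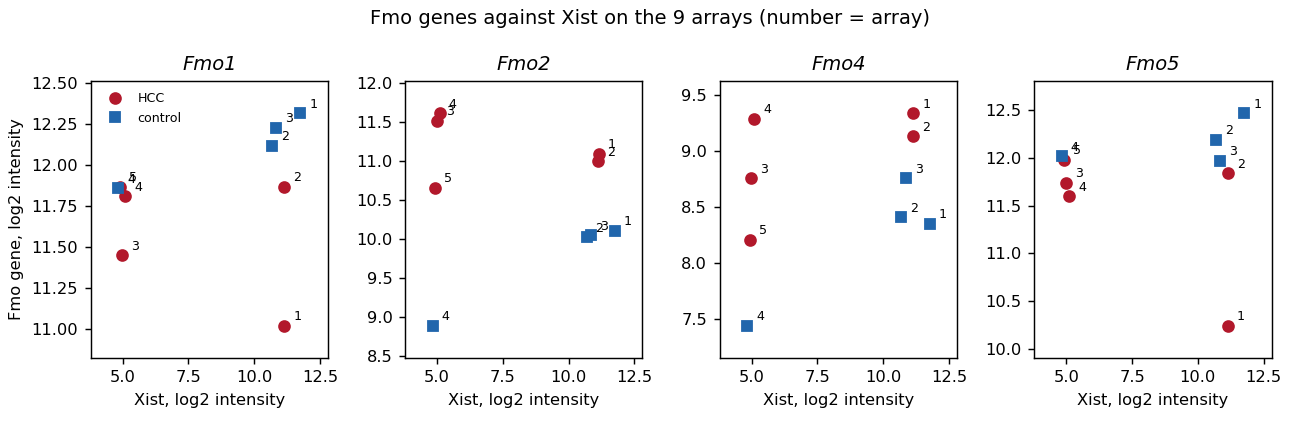
Log2 intensity of each Fmo gene against log2 intensity of Xist on the 9 arrays (red circles, 5 HCC; blue squares, 4 control liver; numbers give the array). Fmo2 is higher in HCC than in control liver on both sides of the plot, and control array 4, at a Xist of 4.83, has the lowest Fmo2 and Fmo4.

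Markers of the cell types that the tissue can hold are given beside these values, and their part in them was not tested. Of 9 measured hepatocyte markers 9 had a negative log2 change and 1, the gluconeogenic enzyme Pck1, passed (10.72 ± 0.53 in HCC and 12.07 ± 0.11 in control liver, n = 5 and n = 4, limma adjusted p = 0.0460, a call lost with Xist as a covariate and in 8 of 9 omissions of 1 array, all but that of HCC array 5, with adjusted p up to 0.142). The hepatocyte list summed to 51691 on HCC array 1, the lowest of all arrays and the array of the lowest Fmo1 and Fmo5. Of 6 measured biliary markers 6 had a positive change and 1, Sox9, passed (9.50 ± 0.65 and 7.35 ± 0.14, limma adjusted p = 0.0228; lost in 4 of 9 omissions, the 4 controls, with adjusted p up to 0.103), and their sum lay between 1193 and 2831 in HCC and between 571 and 829 in control liver. The stellate cell and fibroblast list summed to 2058 to 4922 in HCC and 3978 to 4801 in control liver, the endothelial list to 1625 to 2805 and 2023 to 2438, the macrophage list to 1281 to 4838 and 1579 to 3555, the lymphocyte list to 574 to 1504 and 668 to 935, and the adipocyte list to 679 to 1436 and 613 to 783. In limma 0 genes of these 5 lists passed, and the sums overlapped between the groups. An unadjusted p below 0.05 was seen in limma for 5 of 10, 2 of 8, 1 of 6, 0 of 5 and 1 of 5 measured genes in this order. Those of the stellate cell and fibroblast list were Col1a2, Col3a1, Lum and Acta2, higher in HCC, and Lrat, lower. An unadjusted p below 0.05 in limma was seen for 4 of the 9 hepatocyte markers and 3 of the 6 biliary markers, against 20.4% of all genes. No marker was at 0, since RMA gives every probe set a value. Adipoq, Plin1, Lep and Cidec, the defining markers of fat cells, were all below the median gene. The fifth marker of that list, the fatty acid carrier Fabp4, was above it, with 10.19, 9.55, 9.79, 9.53 and 8.53 on HCC arrays 1 to 5, against 8.32, 8.95, 8.60 and 8.25 on control arrays 1 to 4 (limma adjusted p = 0.130).

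A further 2 measured genes of the family were below the median gene, and 0 of these 2 passed in limma, adjusted or at an unadjusted p below 0.05. Fmo9 lay between 5.24 and 5.48 on the HCC arrays and between 5.35 and 5.44 on the control arrays (log2 change -0.02, SE 0.07, limma adjusted p = 0.892). Gm4847, for which the RefSeq gene table gives Fmo12 as a synonym, lay between 4.14 and 5.14 in HCC and between 4.46 and 4.76 in control liver (log2 change 0.07, SE 0.18, limma adjusted p = 0.855). Both lie on chromosome 1, outside the row of Fmo4, Fmo1 and Fmo2.

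The genes next to the members had smaller differences than Fmo2, but not than every member. Up to 3 measured genes on each side of a member gave 12 genes outside the family, with log2 changes between -0.27 and 0.64, of which 6 were positive and 6 negative. The largest, Bcl9 near Fmo5 (0.64, limma adjusted p = 0.155), exceeded Fmo1 (-0.53) in size and was near Fmo4 (0.71) and Fmo5 (-0.68). In limma 6 of these 12 genes had an unadjusted p below 0.05, against 20.4% of all genes, and 1 passed when adjusted. Of these, Prrx1, a homeobox factor of mesenchymal cells on the Fmo2 side of the cluster, rose, with 6.33 to 6.76 in HCC and 5.91 to 6.02 in control liver (log2 change 0.61, adjusted p = 0.0336 in limma; without each array in turn 0.56 to 0.67 and 0.0132 to 0.121, no longer passing without control array 1, 2, 3 or 4 or HCC array 4). On the other side, Prrc2c, next to Fmo4, measured 10.50 ± 0.27 in HCC and 9.97 ± 0.23 in control liver, and Vamp4, a vesicle fusion protein, 10.26 ± 0.22 and 9.91 ± 0.26, with n = 5 and n = 4 and limma adjusted p of 0.121 and 0.223. Beside Fmo5 on chromosome 3, the remodelling enzyme Chd1l measured 7.57 ± 0.22 and 7.53 ± 0.14, and Prkab2, a subunit of the AMP-activated kinase, 7.07 ± 0.14 and 6.65 ± 0.11, with limma adjusted p of 0.901 and 0.0654.

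The measured genes of the lists for electron transfer and NADPH supply did not pass the test. Por, of the first list, and G6pdx, of the second, were not among the measured genes, so nothing is said of them. Of 9 measured genes of microsomal electron transfer, 0 were past the threshold in limma, and 1 had an unadjusted p below 0.05, against 20.4% of all genes. In this list 6 had a negative change, and the median was -0.07. The cytochrome b5 gene Cyb5a measured 12.29 ± 0.61 in HCC and 12.83 ± 0.09 in control liver, and its mitochondrial outer membrane relative Cyb5b 9.10 ± 0.59 and 9.75 ± 0.03. HCC array 1 was at 11.36 for Cyb5a and 8.59 for Cyb5b, the lowest of the HCC arrays for the first and level with HCC array 4 for the second. Of 9 measured genes of NADPH supply, also 0 passed in limma, 1 had an unadjusted p below 0.05 (against 20.4% of all genes), 6 were negative and the median was -0.07. The malic enzyme Me1 had the lowest p in that list, with 10.12 ± 0.86 in HCC and 11.33 ± 0.30 in control liver (n = 5 and n = 4, limma adjusted p = 0.149).

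The oxidases outside the P450 family had mostly negative changes. Of 15 measured, 13 were negative with a median of -0.68, against -0.033 over all genes. In limma 0 of the 15 passed, with an unadjusted p below 0.05 for 6, against 20.4% of all genes. The monoamine oxidase Maob measured 10.19 ± 0.97 in HCC and 11.83 ± 0.20 in control liver (SD, n = 5 and n = 4, log2 change -1.64, limma adjusted p = 0.104). All HCC values were below all control values. The same separation held for Adh5, the formaldehyde-oxidising alcohol dehydrogenase (11.41 ± 0.34 and 12.05 ± 0.09, limma adjusted p = 0.0884), and for Aldh3a2, the fatty aldehyde dehydrogenase (10.96 ± 0.87 and 12.19 ± 0.22, limma adjusted p = 0.144). These genes were named for having the smallest p of the list, a choice that favours separation. In Suox, named by the same rule, the groups overlapped, and separation was not counted over the rest of the list. Of all genes 3.86% separated with HCC lower. In Fmo1 and Fmo5 the groups overlapped, and in Fmo2 they separated in the other direction, but no contrast with the oxidases is read from this.

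Choline and methylamine genes, which supply and consume the methylamines that Fmo enzymes oxidise, had 0 of 14 measured members past the threshold in limma. Of the 14, 8 had an unadjusted p below 0.05 in limma, against 20.4% of all genes, 11 were negative, and the median was -0.46. The glycine N-methyltransferase Gnmt measured 12.06 ± 0.32 in HCC and 12.79 ± 0.04 in control liver (limma adjusted p = 0.0591). The choline kinase Chka was the member with the highest positive change, with 8.57 ± 0.55 and 7.44 ± 0.19 (log2 change 1.13, limma adjusted p = 0.0726), and the methyltransferase Pemt measured 11.02 ± 0.61 and 12.06 ± 0.14 (limma adjusted p = 0.104).

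Among 17 measured genes of sulfur amino acids, hypotaurine and taurine, 1 rose, 1 fell and 15 did not pass, with a median of -0.31. In limma 8 of the 17 had an unadjusted p below 0.05, against 20.4% of all genes. Csad, the decarboxylase that makes hypotaurine, which Fmo1 is known to oxidise to taurine, measured 9.21, 8.89, 9.27, 9.61 and 9.22 on HCC arrays 1 to 5, against 8.23, 8.08, 8.11 and 8.40 on control arrays 1 to 4. The groups did not overlap, and Csad rose by a log2 change of 1.04 (SE 0.14, limma adjusted p = 0.0194). Without 1 array it was 0.94 to 1.12, and the call was lost without control array 1, 2 or 3 (adjusted p up to 0.0923). The aminotransferase Got1 fell, with 9.78 ± 0.74 in HCC and 12.02 ± 0.58 in control liver (log2 change -2.24, limma adjusted p = 0.0460). Its call held in 1 of 9 omissions, that of HCC array 5, with log2 changes of -2.47 to -1.99 and adjusted p of 0.0171 to 0.141. Cth, the cystathionine lyase that makes cysteine, measured 10.32 ± 0.52 and 11.67 ± 0.33 (limma adjusted p = 0.0531).

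**Figure D4:**
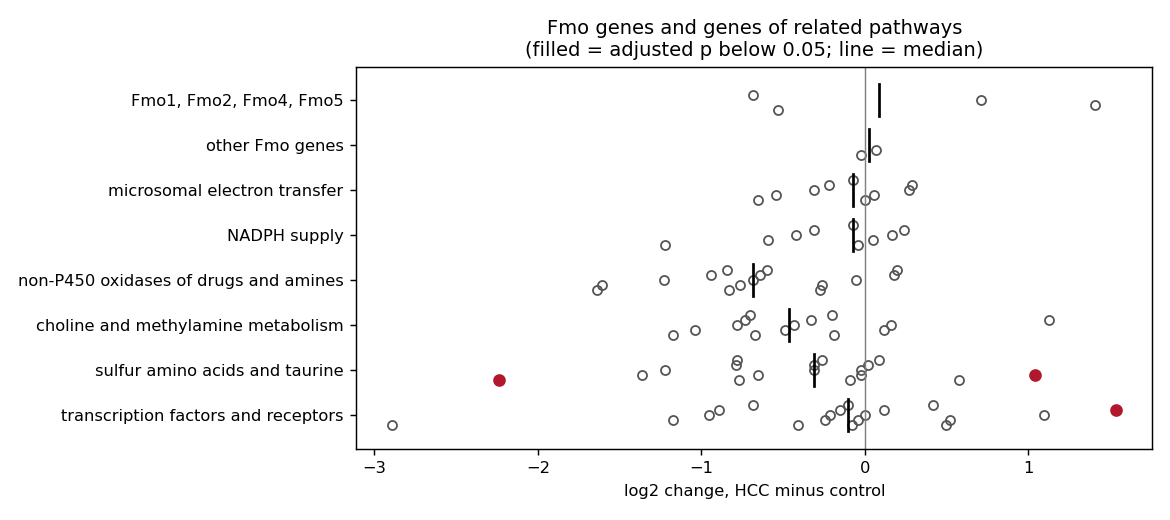
Log2 change (HCC minus control) of the 4 Fmo genes in the top row and of the measured genes of 7 related lists below; each circle is 1 gene, filled where the limma adjusted p was below 0.05, and the vertical line is the median of the row. The 4 Fmo genes lie on both sides of 0, the median of the oxidases outside the P450 family is -0.68, and filled circles are Csad (1.04), Got1 (-2.24) and Hes1 (1.54).

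Of 19 measured factors and receptors reported to act on Fmo genes or on hepatic drug metabolism, Hes1, a repressor switched on by Notch, rose (8.46 ± 0.48 in HCC and 6.93 ± 0.20 in control liver, limma adjusted p = 0.0343; 0.012 to 0.12 when 1 array was left out, not passing without any 1 of the 4 controls or HCC array 4), and the other 18 did not pass. The median was -0.10, and in limma 10 of the 19 had an unadjusted p below 0.05, against 20.4% of all genes. Rbpj, the partner of NICD, measured 8.83 ± 0.25 and 8.33 ± 0.14 (limma adjusted p = 0.104; the log2 change of 0.50 was 0.16, SE 0.12, with all probe sets of Rbpj averaged), the estrogen receptor Esr1 8.53 ± 0.36 and 9.43 ± 0.42 (limma adjusted p = 0.0961), and the lipid sensor Ppara 9.13 ± 0.76 and 10.30 ± 0.28 (limma adjusted p = 0.130), with n = 5 and n = 4 throughout. The member with the lowest change was the xenobiotic receptor Nr1i3, at -2.89 with a limma adjusted p of 0.130, named after its value was seen.

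The genes whose log2 intensity was most like that of a member over the 9 arrays were named by Pearson's r among genes brighter than the median gene. For Fmo2 they were Gas2l3, a cytoskeletal linker (r = 0.95), the splicing factor Sfpq (0.95) and the nucleosome-binding protein Hmgn2 (0.94), at r of 0.83, 0.87 and 0.77 after the group means were subtracted. Hmgn2 rose by 0.79 (11.79 ± 0.21 in HCC and 11.00 ± 0.16 in control liver, limma adjusted p = 0.0346; the call was lost in 7 of 9 omissions and held without HCC array 2 or HCC array 5, adjusted p 0.011 to 0.127). For Fmo4 they were Zup1 (0.96), the syntaxin Stx7 (0.94) and the lipase Abhd2 (0.94). For Fmo1 they were the peptide receptor Vipr1, Tmie and the sialyltransferase St3gal5, each at 0.97. For Fmo5 they were the ubiquitin ligase Wwp1, Ndrg2 and Stab2, the scavenger receptor of sinusoidal endothelium, each at 0.98 and at 0.97 within the groups. Stab2 shared with Fmo5 its lowest value on HCC array 1 (6.14, against 7.50 to 8.09 on the other HCC arrays and 7.98 to 8.86 on the control arrays), where the sum of the endothelial list, which holds Stab2, was also lowest. The markers of that list did not all go this way. Kdr, Lyve1, Eng and Tek were also lowest on HCC array 1 among the HCC arrays, but Pecam1 (8.61), Cdh5 (9.25) and Vwf (6.80) were not. Such values of r are the highest of many genes over 9 points and carry no test.

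**Figure D5:**
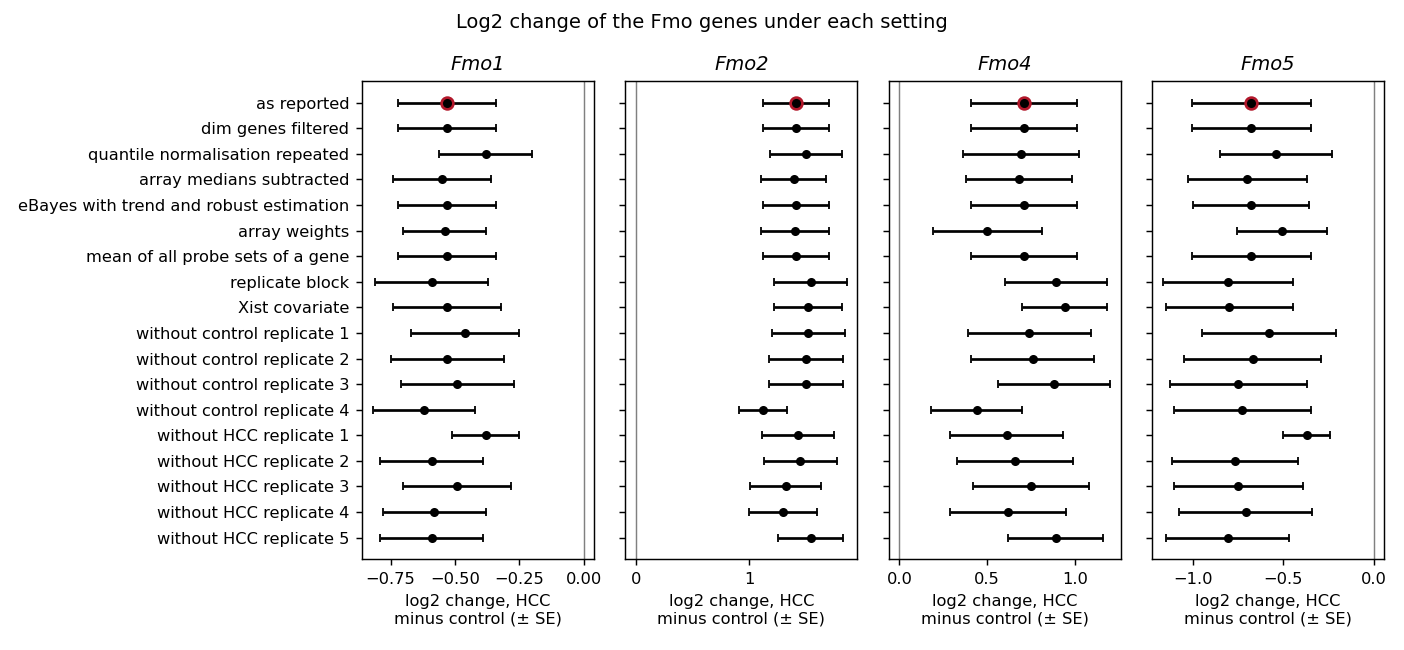
Log2 change (HCC minus control, with SE as the bar) of each Fmo gene as reported (ringed in red, top row) and under each of the 17 alternatives listed at the left. Fmo2 and Fmo4 stay above 0 and Fmo1 and Fmo5 below 0 in all 17, with Fmo4 lowest without control replicate 4 (0.44) and Fmo5 nearest 0 without HCC replicate 1 (-0.37).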

How the data were processed

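The deposited values are intensities of 35512 probe sets on a linear scale, summarised by the authors with RMA per the submitters' processing notes. Preprocessing used GenePattern and R, per the deposited design text, in versions not given in the sources. RMA corrects background, quantile-normalises probes and summarises probe sets, so a low intensity does not show absence, and related genes can share signal. The values (3.91 to 21468) are linear and were transformed to log2 with no floor. Of the probe sets, 21789 had 1 symbol in the platform annotation, 1621 several and 12102 none. Symbols were updated by Entrez identifier (21698 matched), and the brightest probe set of a gene was kept. HCC and control were compared by limma 3.58.1 (R 4.3.3) over all 19938 genes on group alone (two-sided test, Benjamini-Hochberg adjustment, threshold 0.05). The fit was tested on simulated data. The number of arrays limits the precision.

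The members and lists were chosen with earlier results of these data known. Named genes were the members, other Fmo genes, up to 4 genes per list with the smallest p, neighbours, and the 3 genes most like each member; not every one is described. Alternatives were a filter on dim genes, repeated quantile normalisation, median subtraction, array weights, trended robust variances, averaged probe sets, a replicate block, Xist as a covariate, and each array left out. Tables and plots used Python 3.11.15, pandas 2.3.3 and matplotlib 3.10.9.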

Additional observations from a re-analysis of the deposited data

Results flagged for a closer look

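A sample stood far from the others of its group, by Dixon's criterion, in 9 of 112 groups of 4 or 5 arrays over the genes named by the rule. For independent groups of normally distributed values chance gives about 1 in 20. These groups are not independent, since some genes were named for their likeness to a member or for a small p. No excess is therefore read from the count. Among the members, Fmo2 was at 8.89 on control array 4, against 10.03 to 10.11 on the other controls, and Fmo5 was at 10.24 on HCC array 1, against 11.60 to 11.98 on the other HCC arrays. HCC array 5 was high for Gnmt (12.63, against 11.81 to 11.97) and low for Stx7 (7.80, against 8.18 to 8.25). Control array 1 was high for Fmo9 (5.44, against 5.35 to 5.36), Myocos (5.94, against 5.56 to 5.61), Olfr1402 (6.31, against 6.25) and Ndrg2 (13.32, against 13.15 to 13.16), and control array 2 was low for Bcl9 (6.80, against 7.06 to 7.11). The causes were not tested.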

How the results depend on the processing

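Fmo1, Fmo2, Fmo4 and Fmo5 kept their direction under all 17 refitted alternatives and in both parts of the split by Xist. Not all of these alternatives could show a change. The dim-gene filter, the trended robust variances and the averaged probe sets cannot move the difference of a gene with 1 probe set. The replicate block leaves out HCC array 5 and so repeats the differences of that omission. With 1 array left out, the log2 difference was -0.62 to -0.38 for Fmo1, 1.12 to 1.54 for Fmo2, 0.44 to 0.89 for Fmo4 and -0.81 to -0.37 for Fmo5. Under the other refits it was -0.59 to -0.38, 1.39 to 1.54, 0.50 to 0.94 and -0.81 to -0.51, in the same order. It moved by more than the spread between replicates among the arrays of low Xist, where Fmo1 was at -0.15, Fmo2 at 2.38 and Fmo4 at 1.31, with 1 control array. The replicate block, on arrays 1 to 4 of both groups, gave -0.59, 1.54, 0.89 and -0.81 for Fmo1, Fmo2, Fmo4 and Fmo5, but arrays of the same number did not deviate together (r of -0.064 to 0.298), so the numbers do not show a pairing. The counts of genes past the threshold, 171 higher and 32 lower, were less stable. They were 285 and 93 with dim genes filtered (fewer genes tested), 503 and 246 with array weights, and 259 and 220 with the replicate block, and the lower count was 49 after repeated quantile normalisation. The omission of HCC array 5 alone, an array that the replicate block also leaves out, gave 631 and 556. The causes of the shifts under array weights, the replicate block and repeated quantile normalisation were not tested. With 1 array left out the counts of higher and lower genes were 10 to 631 and 0 to 556. In limma 0 genes were lower without control array 1, 2 or 3, where 1530, 1615 and 1484 were lower at an unadjusted p below 0.05. Without HCC array 5, 1187 genes passed, the most of any omission.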
